A study of Mus musculus with 4 samples.

Results

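Fibroblast nuclei made up 105 of 15473 barcodes that passed the filter in a joint single-nucleus RNA and chromatin accessibility (10x multiome) experiment on mouse lung. A barcode was taken as a fibroblast when the UMIs of Col1a1, Col1a2, Col3a1, Eln, Cdh11, Fbn1, Pdgfra, Mgp and Col5a2 summed to at least 5. In addition, the endothelial genes Calcrl, Ptprb, Cyyr1 and Cdh5 had to sum to fewer than 3 UMIs, and Ptprc, the gene of the leukocyte surface protein CD45, had to be at 0. All barcodes first passed a filter of 500 to 25000 UMIs (unique molecular identifiers, each standing for 1 captured transcript), at least 300 detected genes and a mitochondrial share under 30%. The library labelled CKO held 84 such nuclei among 8129 filtered barcodes, a share of 1.03% (exact 95% interval 0.825% to 1.28%). The Control library held 21 among 7344, a share of 0.286% (0.177% to 0.437%). The rule read the RNA of these nuclei, so the levels of its 9 genes describe the choice and are no result.

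The GFP+ cells had been sorted by flow cytometry from lungs of male mice 8 days after injury with bleomycin, a drug that damages the alveolar epithelium and is followed by fibrosis. CKO mice carried SftpcCreERT2, the Rosa26mTmG reporter and floxed IP alleles (IPF/F, the prostaglandin I2 receptor gene Ptgir), and Control mice carried SftpcCreERT2 and Rosa26mTmG only. Both groups therefore shared the Cre driver, the reporter and the injury, and no uninjured lung was compared. Sftpc is a gene of alveolar type 2 (AT2) epithelial cells, so the Cre driver is not a fibroblast driver, and the reporter turns from membrane tdTomato to membrane GFP where Cre has acted. Whether the fibroblast barcodes came from cells that carried GFP was not tested. There was 1 RNA and 1 ATAC library per genotype from the same nuclei, the number of mice behind each is not given in the sources used here, and nuclei are not replicates. No difference between the 2 genotypes below has a replicate check, no p-value is given, and every interval covers counting error only.

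Lung fibroblasts lay down and remodel the collagen and elastic fibre scaffold of the alveolar wall. Alveolar fibroblasts that express Pdgfra and Tcf21 sit beside AT2 cells and send them growth signals such as FGF and Wnt ligands. After bleomycin a part of the fibroblasts takes up a fibrotic program with high fibrillar collagen, tenascin and periostin, and fibroblasts can also make prostaglandin I2 (prostacyclin) through the enzyme encoded by Ptgis.

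The fibroblast nuclei were deeper than their surroundings in RNA. Their median was 5166 UMIs (622 to 14717) in CKO fibroblasts against 2668 in other CKO barcodes, and 4499 (1444 to 15667) in Control fibroblasts against 2943 in other Control barcodes. Since the rule is a count threshold, it finds members more easily in deeper barcodes. After every barcode was thinned to 1000 UMIs, with 947 shallower barcodes left out of the CKO library and 877 out of the Control library, the share was 63 of 7182 (0.877%) in CKO and 9 of 6467 (0.139%) in Control. The median mitochondrial share was 13.5% in CKO fibroblasts against 14.0% in other CKO barcodes, and 17.5% in Control fibroblasts against 18.3% in other Control barcodes. Scrublet, a doublet caller, marked 0 of the members, 0 other CKO barcodes and 0 other Control barcodes, so it has not worked here and doublets of 2 nuclei were not removed. The libraries had 193 barcode sequences in common, 0 of them among the fibroblasts. At least 1 UMI of a surfactant gene was present in 91.7% of CKO fibroblasts against 95.9% of other CKO barcodes. In the Control library it was present in 90.5% of fibroblasts against 96.6% of other barcodes. Surfactant transcripts were thus found in nearly all barcodes, fibroblasts included, and their origin in the fibroblasts was not tested. Ptgir had 1 UMI in all CKO fibroblasts and 0 in all Control fibroblasts, and 0.0994% of other CKO barcodes and 0.0273% of other Control barcodes had a UMI. At that level it does not check the genotype labels. The labels do not say which exon the floxed allele loses.

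The summed count of the 9 rule genes had a median of 41.5 UMIs and a maximum of 541 in CKO fibroblasts, and a median of 14 and a maximum of 105 in Control fibroblasts. Just inside the threshold, sums of 5, 6 and 7 were found in 2, 1 and 6 CKO nuclei and in 0, 2 and 0 Control nuclei. Just outside it, a sum of 4 was found in 9 CKO and 1 Control barcodes, and a sum of 3 in 13 CKO and 8 Control barcodes. Of the 112 CKO and 25 Control barcodes that reached a sum of 5, the endothelial limit removed 12 CKO and 2 Control barcodes and Ptprc removed 21 CKO and 2 Control barcodes, with 5 CKO barcodes failing both.

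The rule genes themselves, in counts per 1000000 nuclear-encoded UMIs (CPM) summed over the nuclei of a group, begin with the fibrillar collagens of the interstitial matrix. Col1a1, a chain of type I collagen, stood at 1396 CPM in CKO fibroblasts against 9.84 CPM in other CKO barcodes, and at 423 CPM in Control fibroblasts against 1.79 CPM in other Control barcodes. Its partner chain Col1a2 stood at 1799 CPM in CKO fibroblasts against 12.3 CPM in other CKO barcodes, and at 451 CPM in Control fibroblasts against 0.458 CPM in other Control barcodes. Col3a1, type III collagen, stood at 1767 CPM in CKO fibroblasts against 12.2 CPM in other CKO barcodes, and at 589 CPM in Control fibroblasts against 0.208 CPM in other Control barcodes. All 3 were far higher in fibroblasts than around them, which the rule had fixed. A Col1a1 UMI was present in 59 of 84 CKO fibroblasts (70.2%) and in 1.55% of other CKO barcodes, and in 11 of 21 Control fibroblasts (52.4%) and 0.560% of other Control barcodes. Col5a2, a chain of type V collagen that regulates fibril width, stood at 1329 CPM in CKO fibroblasts against 11.4 CPM in other CKO barcodes, and at 800.1 CPM in Control fibroblasts against 2.16 CPM in other Control barcodes. In the Control library 48 of its 87 fibroblast UMIs came from the 6 nuclei described below as cluster 1.

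Among the other rule genes, Eln encodes elastin and stood at 1571 CPM in CKO fibroblasts against 15 CPM in other CKO barcodes, and at 304 CPM in Control fibroblasts against 1.08 CPM in other Control barcodes. Fbn1, the microfibril protein fibrillin-1, stood at 1023 CPM in CKO fibroblasts against 5.78 CPM in other CKO barcodes, and at 497 CPM in Control fibroblasts against 1.46 CPM in other Control barcodes. Mgp, the matrix Gla protein that inhibits calcification, stood at 2149.5 CPM in CKO fibroblasts against 34.5 CPM in other CKO barcodes, and at 1260.0 CPM in Control fibroblasts against 2.95 CPM in other Control barcodes. In Control fibroblasts 65 of the 137 Mgp UMIs came from 1 nucleus, so that value rests largely on it. Cdh11, a mesenchymal cadherin, stood at 608 CPM in CKO fibroblasts against 4.83 CPM in other CKO barcodes, and at 497 CPM in Control fibroblasts against 0.957 CPM in other Control barcodes. Pdgfra, the platelet-derived growth factor receptor of alveolar fibroblasts, stood at 455 CPM in CKO fibroblasts against 2.32 CPM in other CKO barcodes, and at 267 CPM in Control fibroblasts against 0.416 CPM in other Control barcodes. It had a UMI in 45 of 84 CKO and 9 of 21 Control fibroblasts.

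The label was then checked with 30 fibroblast genes that the rule did not read, among them Tcf21, Bgn, Fstl1, Itga8 and Tbx4. The list summed to 6461 CPM in CKO fibroblasts and 692 CPM in other CKO barcodes, a log2 ratio of 3.22 (3.16 to 3.28). In the Control library it summed to 3348 CPM in Control fibroblasts and 331 CPM in other Control barcodes, a log2 ratio of 3.34 (3.18 to 3.49). With at least 20 UMIs over both sets, 24 of 26 tested list genes were at least 2-fold higher in CKO fibroblasts, where 14.2% of all 16344 genes passed that fold, and 16 of 18 in Control fibroblasts, where 17.7% of 14643 genes did. The list's median log2 ratio was 6.01 in CKO and 4.70 in Control, against medians of -0.20 and -0.50 over all tested genes of those 2 comparisons. These genes were read from the same nuclei that the rule chose, so the values describe the chosen nuclei and do not test the choice.

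Several of those genes are textbook fibroblast products. Bgn, the proteoglycan biglycan, was at 529 CPM in CKO fibroblasts against 6.65 CPM in other CKO barcodes, and at 119.6 CPM in Control fibroblasts against 0.333 CPM in other Control barcodes. Its UMIs were found in 53 of 84 CKO fibroblasts (63.1%) against 1.42% of other CKO barcodes. Sparc, a collagen-binding matricellular protein, was at 885 CPM in CKO fibroblasts against 206 CPM in other CKO barcodes, and at 340.3 CPM in Control fibroblasts against 102 CPM in other Control barcodes. It was also present in the surroundings, and its log2 ratio was 2.10 in CKO and 1.74 in Control. Dcn, decorin, was at 158 CPM in CKO fibroblasts against 3.51 CPM in other CKO barcodes, and at 82.8 CPM in Control fibroblasts against 0.166 CPM in other Control barcodes. Of its 64 CKO UMIs 29 came from 1 nucleus, and only 20 of 84 CKO fibroblasts had any. Col6a1, a chain of type VI collagen, differed little from the surroundings, at 353 CPM in CKO fibroblasts against 252 CPM in other CKO barcodes, and at 110.4 CPM in Control fibroblasts against 113 CPM in other Control barcodes.

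The 20 genes outside the rule with the highest lower interval bound in CKO fibroblasts over other CKO barcodes were read again in the Control library, which had no part in choosing them. All 20 were at least 2-fold higher in Control fibroblasts than in other Control barcodes, each with an interval above 0 (for Mmp3 on 1 UMI against 0), and their median Control log2 ratio was 7.09. Over all 14643 tested genes 17.7% were at least 2-fold higher there. The same rule chose the Control nuclei, so these values describe the chosen nuclei and do not test the choice. The leading gene was Ptgis, prostacyclin synthase, at 425 CPM in CKO fibroblasts against 2.73 CPM in other CKO barcodes, and at 92.0 CPM in Control fibroblasts against 0.208 CPM in other Control barcodes. A Ptgis UMI was present in 52 of 84 CKO fibroblasts (61.9%) against 0.485% of other CKO barcodes, and in 6 of 21 Control fibroblasts (28.6%) against 0.0683% of other Control barcodes. Its log2 ratio was 7.28 (6.85 to 7.73) in CKO and 8.79 (7.11 to 10.69) in Control.

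Transcription factors in that set were Meox2 and Prrx1, homeobox genes of mesenchyme, and Prdm6, a repressor known from smooth muscle. Prrx1 was at 168 CPM in CKO fibroblasts against 1.09 CPM in other CKO barcodes, and at 138 CPM in Control fibroblasts against 0.166 CPM in other Control barcodes. Meox2 was at 203 CPM in CKO fibroblasts against 1.23 CPM in other CKO barcodes, and at 18.4 CPM in Control fibroblasts against 0.541 CPM in other Control barcodes, and its Control value rests on 2 UMIs. Prdm6 was at 279 CPM in CKO fibroblasts against 2.64 CPM in other CKO barcodes, and at 304 CPM in Control fibroblasts against 0.915 CPM in other Control barcodes. All 3 were higher in fibroblasts of both libraries, with wide intervals in Control.

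The set held 6 matrix genes. Col5a1, a type V collagen chain, had log2 ratios of 6.86 in CKO and 6.93 in Control, and Col6a3, a type VI chain, had 6.44 in CKO and 6.89 in Control. Loxl1, which cross-links elastin, had 138 UMIs in 49 CKO fibroblasts and 9 UMIs in 5 Control fibroblasts, with log2 ratios of 6.89 in CKO and 7.26 in Control. Lama2, the laminin chain of mesenchymal basement membranes, was at 897 CPM in CKO fibroblasts against 8.65 CPM in other CKO barcodes, and at 414 CPM in Control fibroblasts against 4.16 CPM in other Control barcodes. Mfap4, a microfibril-associated glycoprotein, was at 200.1 CPM in CKO fibroblasts against 1.87 CPM in other CKO barcodes, and at 313 CPM in Control fibroblasts against 0.208 CPM in other Control barcodes. Fbln2, fibulin-2, had 87 UMIs in 28 CKO fibroblasts, whereas its 7 Control UMIs all came from 1 nucleus of cluster 1.

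Secreted and enzymatic genes filled the rest of the set. Nox4, an NADPH oxidase that makes hydrogen peroxide, was at 726 CPM in CKO fibroblasts against 6.10 CPM in other CKO barcodes, and at 689.8 CPM in Control fibroblasts against 0.915 CPM in other Control barcodes. C7, a component of the terminal complement complex, was at 620.1 CPM in CKO fibroblasts against 6.19 CPM in other CKO barcodes, and at 1269 CPM in Control fibroblasts against 1.41 CPM in other Control barcodes. Fstl1, a secreted follistatin-like glycoprotein, was at 529 CPM in CKO fibroblasts against 4.92 CPM in other CKO barcodes, and at 156 CPM in Control fibroblasts against 1.83 CPM in other Control barcodes. The log2 ratio of C7 was 6.65 (6.34 to 6.96) in CKO and 9.81 (9.26 to 10.40) in Control, so both intervals lay far above 0. Mmp2 (gelatinase A), Mmp3 (stromelysin-1), Pappa (a protease of IGF-binding proteins), Abca8a (a lipid transporter of the ABC family), Unc5c (a netrin receptor), Ism1 (isthmin) and Medag completed the 20, with CKO log2 ratios of 6.59 to 7.23. Mmp3 had 47 UMIs in 10 CKO fibroblasts and 1 UMI in Control fibroblasts, where the other Control barcodes had 0.

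**Figure D1:**
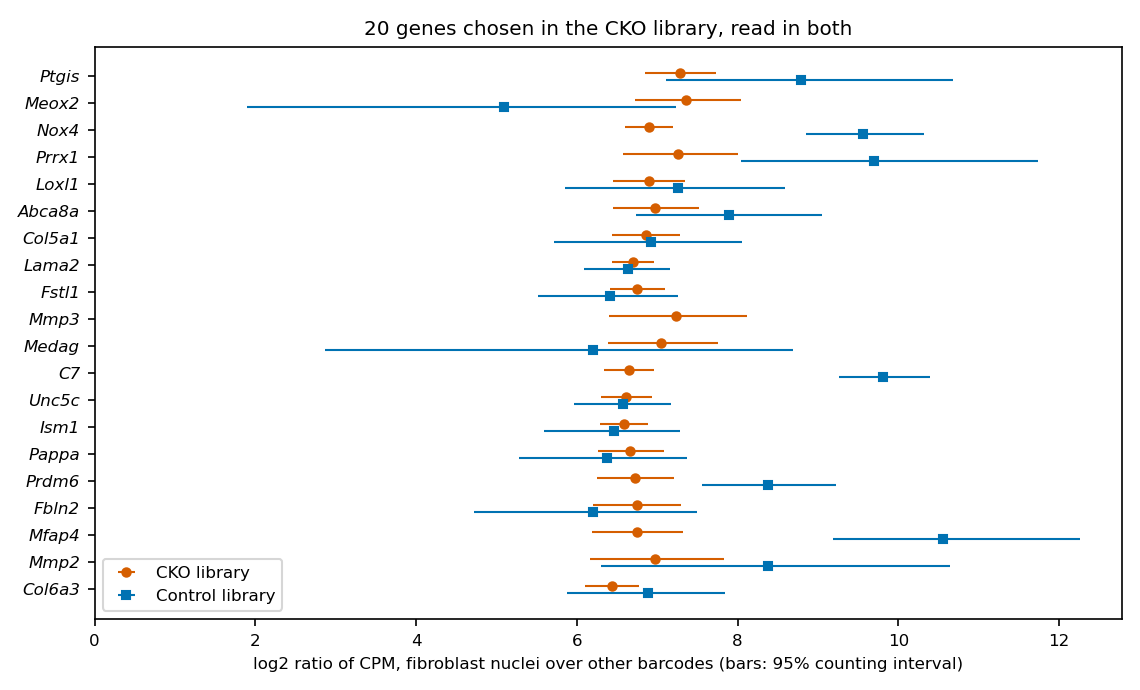
Log2 ratio of CPM, fibroblast nuclei over the other barcodes of the same library, for 20 genes chosen in the CKO library (x axis, with 95% counting intervals; 1 gene per line on the y axis; circles CKO, squares Control). All Control points lie to the right of 0, and Ptgis stands at 7.28 in CKO and 8.79 in Control; Mmp3 has no Control point because the other Control barcodes had 0 UMIs.

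The nuclei were not alike. Leiden clustering of all 105 on 1000 variable genes gave 5 clusters at resolution 0.5, 3 at resolution 0.3 and 7 at resolution 1.0. Clusters 1, 2 and 4 held nuclei of both libraries, with 4 CKO and 6 Control nuclei in cluster 1, 34 CKO and 8 Control in cluster 2, and 21 CKO and 7 Control in cluster 4. Cluster 3 (20 nuclei) and cluster 5 (5 nuclei) held CKO nuclei only, so with 1 library per genotype each may belong to that library and not to a kind of cell. The clusters were built from the RNA described next, so their defining genes are a description. Median depth was 6877, 5806, 5878, 3859 and 7574 UMIs in clusters 1 to 5, and the median mitochondrial share was 8.30%, 17.5%, 15.9%, 8.45% and 18.8%.

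Cluster 1 went against the label. It was led by Sorbs2, Nrg1, Ppp2r2b, Kcnn3, Epha4, Itgb6 and Lama3, and the last 2 encode an epithelial integrin chain and a chain of epithelial laminin. A list of 15 alveolar type 1 (AT1) genes summed to 12557 CPM in its CKO nuclei, with 15 of 15 detected, against 4865 CPM in other CKO barcodes, and to 3798 CPM in its Control nuclei against 3385 CPM in other Control barcodes. The 30 fibroblast genes outside the rule summed to only 2154 CPM in its CKO nuclei and 364 CPM in its Control nuclei, against 692 CPM in other CKO and 331 CPM in other Control barcodes. Its rule-gene sum had a median of 8 UMIs (5 to 19), and 6 of its 10 nuclei had a sum of 5 to 9. Without it 80 CKO nuclei (0.984% of filtered barcodes) and 15 Control nuclei (0.204%) remained.

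Cluster 4, with 21 CKO and 7 Control nuclei, carried the alveolar fibroblast program. Its leading genes included Txndc11, Adra1a, Col23a1, Angpt1, Abca8a and Col13a1. The list of 20 alveolar fibroblast genes summed to 18132 CPM in its CKO nuclei against 3099 CPM in other CKO barcodes, and to 25284 CPM in its Control nuclei against 2983 CPM in other Control barcodes. Fibroblast genes outside the rule stood at 8330 CPM in its CKO nuclei and 8009 CPM in its Control nuclei. Pan-epithelial genes stood at 128 CPM in its CKO nuclei and at 0 in its Control nuclei, against 1498 CPM in other CKO and 1215 CPM in other Control barcodes.

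Single genes were also high in cluster 4 within CKO fibroblasts, though of those named here only Limch1 is on that list. C7, Angpt1 and Limch1 are among the leading genes of the cluster, which were read from these same counts. C7 stood at 1433 CPM in cluster 4, 747 CPM in cluster 2 and 63.3 CPM in cluster 3. Eln, which the rule used, had 314 of its 636 UMIs in cluster 4. Angpt1, the angiopoietin that stabilises vessels, stood at 1126 CPM in cluster 4 and 169 CPM in cluster 3. Limch1, a regulator of non-muscle myosin, stood at 3967 CPM in cluster 4 and 612 CPM in cluster 3. In the 7 Control nuclei of cluster 4 Angpt1 stood at 1583 CPM and Limch1 at 3119.8 CPM.

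Cluster 3, seen in the CKO library alone, had the highest sum of the fibrotic list. The 20 genes, among them Cthrc1, Postn, Tnc and Fn1, summed to 10428 CPM in cluster 3, 7639 CPM in the CKO nuclei of cluster 4 and 888 CPM in other CKO barcodes. Its leading genes were Hmga2, Col5a3, Itga5, Chst11, Ncam1, Inhba and Spp1. Itga5, the alpha chain of the fibronectin receptor, had 150 of its 188 CKO fibroblast UMIs there, and Spp1, osteopontin, had 74 of 104. Tnc, tenascin-C, stood at 2024 CPM in cluster 3, 1523 CPM in cluster 4 and 197 CPM in cluster 2. Acta2, smooth muscle actin and a myofibroblast marker, had 28 of its 46 UMIs in cluster 3, found in 9 of 20 nuclei. Timp1, an inhibitor of metalloproteinases, had 50 of 99 UMIs there.

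Set directly against the CKO nuclei of cluster 4, cluster 3 had more fibrillar collagen RNA, at 10861 CPM in cluster 3 and 5541 CPM in cluster 4, a log2 ratio of 0.97. It had less alveolar fibroblast RNA, at 6126 CPM in cluster 3 and 18132 CPM in cluster 4, a log2 ratio of -1.57. Complement and cytokine genes summed to 1750.3 CPM in cluster 3 and 4440.1 CPM in cluster 4, a log2 ratio of -1.34. Over all 2012 genes tested 14.3% were at least 2-fold higher in cluster 3 and 13.2% at least 2-fold lower. Both clusters were defined on these same counts.

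Cluster 2, the largest with 42 nuclei, carried fibroblast and AT2 RNA together when its nuclei were summed. Fibroblast genes outside the rule summed to 5320 CPM in its CKO nuclei and 3647 CPM in its Control nuclei. The 12 AT2 genes summed to 5736 CPM in its CKO nuclei against 11350 CPM in other CKO barcodes, and to 7355 CPM in its Control nuclei against 11754 CPM in other Control barcodes, which is more than the 1739.8 CPM of cluster 3 and the 2009 CPM in CKO and 1350.3 CPM in Control nuclei of cluster 4. Its leading genes included Kcnb2, Csmd1, Hc, Cpm and Cd36. Per 10000 UMIs of a nucleus, the median AT2 sum was 53.5 in cluster 2 and 16.1 in cluster 4. The median AT1 sum in cluster 2 was 24.4 in CKO and 8.19 in Control nuclei. Its nuclei varied, so the sums do not give the mixture in each. In 1 CKO nucleus there were 286 UMIs of the fibroblast genes outside the rule and 6 of AT2 genes. Another had 9 and 50. Whether these barcodes held RNA of 2 nuclei, or free RNA of AT2 cells, was not tested. Resolution 1.0 split cluster 2 into 3 parts.

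Cluster 5, 5 CKO nuclei, showed mesothelial genes. The 10 mesothelial genes were all detected and summed to 7477 CPM against 128 CPM in other CKO barcodes. Wt1, a transcription factor of mesothelium, had all 27 of its CKO fibroblast UMIs there, and Msln, mesothelin, 90 of 105. The fibroblast genes outside the rule summed to 5900 CPM, so RNA of that list and of the mesothelial list was present. The 9 rule genes summed to 6277 CPM, but the rule had required their UMIs, so this level is no result. Ptgis stood at 1921 CPM in cluster 5, with 27 of the 56 UMIs in 1 nucleus, and at 512, 422, 202 and 0 CPM in the CKO nuclei of clusters 4, 3, 2 and 1.

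**Figure D2:**
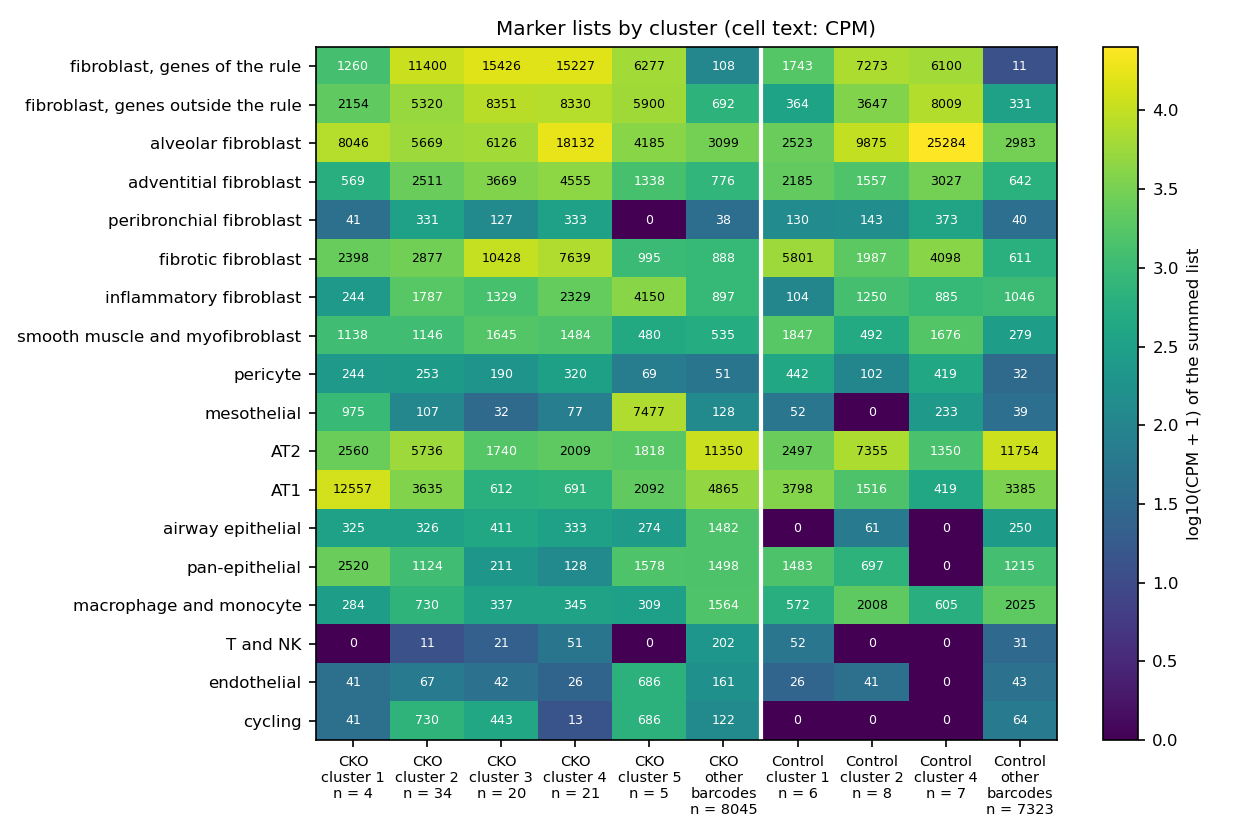
Summed CPM of 18 marker lists (y axis) in each cluster and in the other barcodes of the same library (x axis, CKO columns left of Control columns, n nuclei below each; colour is log10 of CPM + 1, text is CPM). Cluster 1 is high in the AT1 list at 12557 CPM in CKO, cluster 4 in the alveolar fibroblast list, cluster 3 in the fibrotic list and cluster 5 in the mesothelial list, while the AT2 list is at 5736 CPM in CKO nuclei of cluster 2 and higher in its Control nuclei and in the other barcodes of both libraries.

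**Figure D3:**
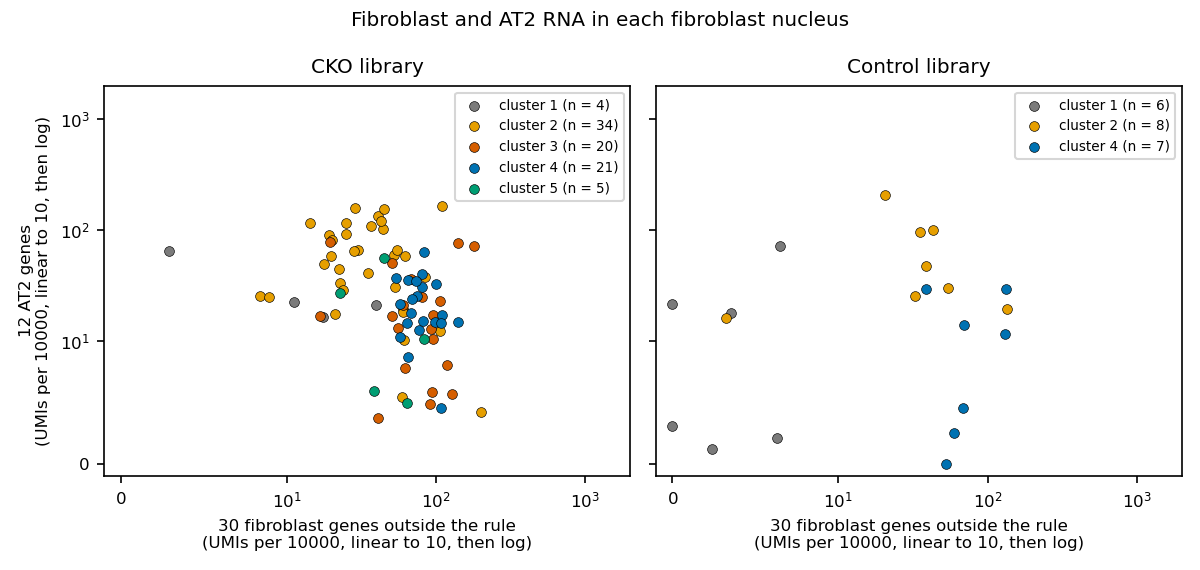
Each point is 1 fibroblast nucleus (84 CKO, left; 21 Control, right), coloured by cluster, with UMIs of the 30 fibroblast genes outside the rule per 10000 UMIs on the x axis and of 12 AT2 genes on the y axis, both linear to 10 and logarithmic above. By median, nuclei of clusters 3 and 4 lie further right and lower than those of cluster 2, with median AT2 sums of 16.9, 16.1 and 53.5. Single nuclei overlap, with AT2 sums up to 78.4 in cluster 3 and 63.7 in cluster 4. The 6 Control nuclei of cluster 1 lie at the left.

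Markers of other cell types were read in the same nuclei. The AT2 list summed to 3605 CPM in CKO fibroblasts and 11349.5 CPM in other CKO barcodes, and to 4451 CPM in Control fibroblasts and 11754 CPM in other Control barcodes, with 12 of 12 genes at least 2-fold lower in CKO fibroblasts and 11 of 12 in Control fibroblasts, where 28% and 42.5% of all tested genes were. Sftpc, the surfactant protein gene that marks AT2 cells, was at 9.88 CPM in CKO fibroblasts against 101 CPM in other CKO barcodes, and at 36.8 CPM in Control fibroblasts against 81.1 CPM in other Control barcodes. Macrophage genes summed to 506 CPM in CKO fibroblasts and 1564 CPM in other CKO barcodes, and to 1223 CPM in Control fibroblasts and 2025 CPM in other Control barcodes. Their highest fibroblast sum, 2008 CPM, was in the 8 Control nuclei of cluster 2. T and NK cell genes summed to 19.8 CPM in CKO fibroblasts and 202 CPM in other CKO barcodes. The rule itself had required Ptprc at 0 and few UMIs of 4 endothelial genes, so low values of those 5 genes are no finding. The part of these transcripts in the fibroblast values was not tested.

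Matrix genes were then taken by role, each list set against the other barcodes of the same library, with "higher" standing for at least 2-fold higher, as 14.2% of all genes were in CKO and 17.7% in Control. The fibrillar collagens were higher in 10 of 11 tested in CKO and 7 of 9 in Control, counts that include genes of the rule and from which nothing is read. Of 22 tested non-fibrillar collagens 14 were at least 2-fold higher, and the list summed to 3901 CPM in CKO fibroblasts and 1698 CPM in other CKO barcodes, a log2 ratio of 1.20. In Control 8 of 19 were, with a log2 ratio of 0.19. The median log2 ratio of the list was 1.22 in CKO and 0.10 in Control. The basement membrane chains Col4a1 and Col4a2, which epithelium also makes, had CKO log2 ratios of 1.07 and 0.72, while Col13a1, a transmembrane collagen of alveolar fibroblasts, had 6.14. Col5a3, a fibrillar type V chain, had 56 UMIs, of which 51 lay in cluster 3.

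Collagen processing genes were higher in 16 of 21 tested in CKO and 10 of 18 in Control (all genes 14.2% and 17.7%), with median log2 ratios of 2.45 and 1.45. Lox, lysyl oxidase, was at 306 CPM in CKO fibroblasts against 7.33 CPM in other CKO barcodes, and at 82.8 CPM in Control fibroblasts against 1.41 CPM in other Control barcodes. Adamts2, the protease that removes the amino propeptide of procollagen, was at 306 CPM in CKO fibroblasts against 4.24 CPM in other CKO barcodes, and at 221 CPM in Control fibroblasts against 1.25 CPM in other Control barcodes. Pcolce2, an enhancer of the carboxy propeptide protease, was at 101 CPM in CKO fibroblasts against 0.865 CPM in other CKO barcodes, and at 18.4 CPM in Control fibroblasts against 0.458 CPM in other Control barcodes. That protease itself, Bmp1, was lower in fibroblasts, with log2 ratios of -1.39 in CKO and -1.0 in Control. Serpinh1, the collagen chaperone HSP47, had log2 ratios of 2.40 in CKO and 1.66 in Control.

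Elastic fibre genes were higher in 13 of 16 tested in CKO and 8 of 14 in Control, proteoglycans in 11 of 11 and 4 of 6, and matricellular genes in 14 of 16 and 12 of 14, where 14.2% of all genes were in CKO and 17.7% in Control. Their median log2 ratios in CKO were 4.54, 4.18 and 3.05. The elastic fibre counts and median include the rule genes Eln and Fbn1, whose excess the rule had fixed. Fn1, fibronectin, was at 2038 CPM in CKO fibroblasts against 149.5 CPM in other CKO barcodes, and at 1646 CPM in Control fibroblasts against 52.5 CPM in other Control barcodes. Thbs1, thrombospondin-1, an activator of latent TGF-beta, was at 1734 CPM in CKO fibroblasts against 249.8 CPM in other CKO barcodes, and at 974.9 CPM in Control fibroblasts against 386 CPM in other Control barcodes. Ltbp1, which tethers latent TGF-beta to the matrix, was at 702 CPM in CKO fibroblasts against 18 CPM in other CKO barcodes, and at 966 CPM in Control fibroblasts against 9.19 CPM in other Control barcodes. Among 24 tested proteases and inhibitors 17 were at least 2-fold higher in CKO fibroblasts, and 10 of 17 in Control fibroblasts. Adamts12, a protease of the cartilage oligomeric matrix protein, was at 259 CPM in CKO fibroblasts against 4.05 CPM in other CKO barcodes, and at 92.0 CPM in Control fibroblasts against 1.83 CPM in other Control barcodes.

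Signal genes were mixed. Among TGF-beta and BMP genes 15 of 31 tested were at least 2-fold higher in CKO, against 14.2% of all genes, and 12 of 28 in Control, against 17.7%. The receptor subunits Tgfbr2 and Tgfbr3 had CKO log2 ratios of 1.53 and 3.49, and Fst, the activin antagonist follistatin, had 5.35. The intracellular mediators Smad2, Smad3 and Smad4 lay near the surroundings, at -0.77, 0.46 and -0.34. Hedgehog genes were higher in 8 of 9 tested in CKO and 5 of 7 in Control. Boc, a hedgehog co-receptor, and Gli2, a hedgehog transcription factor, had CKO log2 ratios of 6.22 and 5.51.

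Ligands that fibroblasts are known to send to alveolar epithelium were present. Fgf10, a growth factor of the alveolar epithelium, was at 141 CPM in CKO fibroblasts against 2.05 CPM in other CKO barcodes, and at 73.6 CPM in Control fibroblasts against 0.458 CPM in other Control barcodes. Fgf7, keratinocyte growth factor, was at 141 CPM in CKO fibroblasts against 3.33 CPM in other CKO barcodes, and at 55.2 CPM in Control fibroblasts against 3.87 CPM in other Control barcodes. Wnt2 had 16 UMIs in 12 CKO fibroblasts and 3 UMIs in 2 Control fibroblasts, and Wnt5a 13 UMIs in 8 CKO and 4 UMIs in 4 Control fibroblasts, too few to compare. Hgf, hepatocyte growth factor, was at 74.1 CPM in CKO fibroblasts against 11 CPM in other CKO barcodes, and at 129 CPM in Control fibroblasts against 1.29 CPM in other Control barcodes. Igf1 had 67 UMIs in 27 CKO fibroblasts and 12 in 3 Control fibroblasts, 10 of them in 1 nucleus, with log2 ratios of 4.55 in CKO and 4.87 in Control. Slit3, a guidance ligand, was at 1589 CPM in CKO fibroblasts against 27.4 CPM in other CKO barcodes, and at 644 CPM in Control fibroblasts against 29.2 CPM in other Control barcodes. Over the niche list 14 of 21 tested were at least 2-fold higher in CKO, against 14.2% of all genes, and 9 of 19 in Control, against 17.7%, with median log2 ratios of 2.75 and 0.99. Nrg1, whose CKO log2 ratio was 0.28, had 53 of 88 CKO and 74 of 76 Control UMIs in cluster 1.

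Of the prostaglandin genes only some were enriched in fibroblasts. Of the list 6 of 15 tested were at least 2-fold higher in CKO, against 14.2% of all genes, and 1 of 14 in Control, against 17.7%. At least 2-fold lower in Control were 10, against 42.5% of all genes. Its median log2 ratio was 0.15 in CKO and -1.85 in Control. The list summed to 1132 CPM in CKO fibroblasts and 764 CPM in other CKO barcodes, and to 579 CPM in Control fibroblasts and 999.8 CPM in other Control barcodes. The cyclooxygenase Ptgs1 was lower, at 71.7 CPM in CKO fibroblasts against 139.9 CPM in other CKO barcodes, and at 46.0 CPM in Control fibroblasts against 195 CPM in other Control barcodes. The inducible cyclooxygenase Ptgs2 was at 114 CPM in CKO fibroblasts against 102 CPM in other CKO barcodes, and at 92.0 CPM in Control fibroblasts against 281 CPM in other Control barcodes, and 25 of its 46 CKO UMIs lay in the 5 nuclei of cluster 5. Ptger2 and Ptger4, receptors of prostaglandin E2, had 16 and 17 UMIs in CKO fibroblasts and 1 and 0 in Control fibroblasts, and their CKO log2 ratios were 3.49 and 1.62. Slco2a1, the prostaglandin transporter, was at 151 CPM in CKO fibroblasts against 244 CPM in other CKO barcodes, and at 110.4 CPM in Control fibroblasts against 317 CPM in other Control barcodes. Ptgis was thus the gene of this list with the highest ratio in either library.

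Transcription factors of mesenchyme were at least 2-fold higher in 19 of 33 tested in CKO, against 14.2% of all genes, and 8 of 24 in Control, against 17.7%, with median log2 ratios of 1.67 and -0.00. Tbx4 and Tbx5, T-box factors of lung mesenchyme, had CKO log2 ratios of 6.82 and 6.42, and Control log2 ratios of 6.69 and 9.37 on 7 and 6 UMIs. Zeb1 and Zeb2, repressors known from epithelial to mesenchymal transition, were at 2.34 and 1.67 in CKO and at 3.18 and 3.35 in Control. Foxp1 and Foxp2, which lung epithelium also expresses, were at -0.46 and -1.47 in CKO and -0.38 and -1.62 in Control.

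AP-1 and immediate early genes, which dissociation of tissue is known to induce, summed to levels near those of the surroundings. Of 24 tested 5 were at least 2-fold higher in CKO, against 14.2% of all genes, and 4 of 23 in Control, against 17.7%, so both counts were near the share over all genes, with log2 ratios of the sum of 0.32 and -0.29. Jun was at 319 CPM in CKO fibroblasts against 345 CPM in other CKO barcodes, and at 441 CPM in Control fibroblasts against 759 CPM in other Control barcodes. Egr1 was at 667 CPM in CKO fibroblasts against 109.9 CPM in other CKO barcodes, and at 579 CPM in Control fibroblasts against 575 CPM in other Control barcodes, and its surroundings differed between the libraries more than the fibroblasts did. Of 24 tested genes of the p53 list 0 were at least 2-fold higher in CKO and 2 of 24 in Control, against the same 14.2% and 17.7%. Trp53 had 10 UMIs in CKO and 4 in Control fibroblasts. Its target Cdkn1a, the cell cycle inhibitor p21, was at 203 CPM in CKO fibroblasts against 285 CPM in other CKO barcodes, and at 138 CPM in Control fibroblasts against 259 CPM in other Control barcodes.

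Chromatin accessibility was read in the same nuclei and was used neither by the rule nor by the clustering. The ATAC libraries count transposition events in peaks, and 70 CKO fibroblasts (374526 peak counts), 6430 other CKO barcodes, 14 Control fibroblasts (57841 peak counts) and 5420 other Control barcodes had at least 500. Over the bodies and 2000 upstream bases of the 30 fibroblast genes outside the rule, CKO fibroblasts had 1250 per 1000000 peak counts and other CKO barcodes 690, a log2 ratio of 0.86 (0.72 to 0.99). Control fibroblasts had 934 per 1000000 on 54 counts and other Control barcodes 843, a log2 ratio of 0.15 (-0.27 to 0.53), which was -0.55 when only nuclei with a mitochondrial share under 20% were kept. In CKO 10 of 20 tested genes of the list were at least 2-fold more accessible in fibroblasts, against 5.59% of all 15644 genes, and in Control 5 of 18, against 13.9% of 14581. At least 2-fold less accessible were 3 list genes in CKO, against 11.5% of all genes, and 6 in Control, against 35.6%. The median log2 ratio of the list was 1.17 in CKO, against -0.09 over all genes. By cluster the CKO log2 ratio was 0.42, 0.75, 1.38, 0.89 and 0.83 in clusters 1 to 5.

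AT2 genes showed the opposite in summed counts. Their windows had 355 per 1000000 peak counts in CKO fibroblasts against 740 in other CKO barcodes, a log2 ratio of -1.06. In the Control library they had 432 in fibroblasts against 855 in other barcodes, a log2 ratio of -0.98. Over single AT2 genes the Control median log2 ratio was -0.30, the same as over all tested genes. At least 2-fold less accessible were 6 of 12 in Control, against 35.6% of all genes. In CKO the median was -1.11, with 7 of 12 less accessible, against 11.5%. In cluster 2, whose RNA held AT2 transcripts, the CKO log2 ratio of the summed AT2 windows was -1.12. The genes of the alveolar fibroblast list were most accessible in cluster 4, with log2 ratios of 0.92 in its CKO nuclei and 1.25 in its Control nuclei, against 0.48 over all CKO fibroblasts and 0.52 over all Control fibroblasts. Counted within 1000 bases of the gene start, the last value was -0.10. The Control nuclei of cluster 1 stood at 0.94 on 42 counts and those of cluster 2 at -0.84 on 15 counts.

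Windows of single list genes were named after their values were seen. The window of Lox held 37 counts in CKO fibroblasts and 235 in other CKO barcodes, a log2 ratio of 3.51 (2.97 to 4.02). That of Adamts12 held 30 and 258, a log2 ratio of 3.07 (2.48 to 3.62), and that of Loxl1 20 and 222, a log2 ratio of 2.71 (1.97 to 3.37). Sox9, a transcription factor of cartilage and lung tips, held 25 and 189, a log2 ratio of 3.26 (2.60 to 3.87). Control fibroblasts had 2, 3, 8 and 2 counts in the windows of Lox, Adamts12, Loxl1 and Sox9.

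Accessibility at the start of a gene was read in a window of 250 bases upstream and 50 bases downstream of the RefSeq start. Of 479 genes on the lists, 328 were in the RefSeq promoter table (GRCm38.p6) and 255 of those had a peak there in the CKO library. Of 287 tested promoters of these genes 65 were at least 2-fold more accessible in CKO fibroblasts than in other CKO barcodes, against 9.11% of all promoters, and 57 of 267 in Control fibroblasts, against 16.2%. The Col1a2 promoter peak held 18 counts in CKO fibroblasts and 49 in other CKO barcodes, 48.1 against 1.81 per 1000000, a log2 ratio of 4.73 (3.87 to 5.54). That of Adamts12 held 18 and 52 counts, a log2 ratio of 4.65 (3.79 to 5.44), and that of Pcolce2 14 and 39 counts, a log2 ratio of 4.70 (3.70 to 5.61). In the Control library fibroblasts had 4 counts at Pcolce2 against 35 in other barcodes, a log2 ratio of 5.40 (3.45 to 6.89), and 0 counts at Col1a2 and Adamts12 against 38 at each. With 0 counts no Control log2 ratio can be given at Col1a2 and Adamts12, and its upper interval bound was 5.24 at each, which lies above their CKO log2 ratios.

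The 250 upstream bases of these promoters are shown because RNA and accessibility at the start were both higher in CKO fibroblasts there, at genes for type I collagen, a matrix protease and a procollagen enhancer that were picked after their values were seen. They lie on the plus strand at chr6:4505368-4505617 (Col1a2), chr15:11064523-11064772 (Adamts12) and chr9:95637378-95637627 (Pcolce2) of GRCm38.p6, from RefSeq, 5′ to 3′ up to the base before the gene start. Capitals mark CCAAT in Col1a2, 109 to 105 bases upstream of the start, and CANNTG (an E-box) in Adamts12, 175 to 170 bases upstream, and Pcolce2, 119 to 114 bases upstream. Both strands were searched for these 2 strings and for the AP-1 consensus TGACTCA, which was found in none of the 3 windows. Among 32851 upstream windows of all genes 33.8% held the CCAAT string, 66.2% an E-box and 4.46% the AP-1 consensus, and a match describes these letters only.
Col1a2: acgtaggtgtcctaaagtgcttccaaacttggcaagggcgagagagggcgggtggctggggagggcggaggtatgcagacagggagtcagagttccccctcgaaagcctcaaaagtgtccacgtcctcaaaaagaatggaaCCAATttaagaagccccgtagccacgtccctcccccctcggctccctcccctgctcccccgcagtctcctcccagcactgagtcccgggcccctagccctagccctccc
Adamts12: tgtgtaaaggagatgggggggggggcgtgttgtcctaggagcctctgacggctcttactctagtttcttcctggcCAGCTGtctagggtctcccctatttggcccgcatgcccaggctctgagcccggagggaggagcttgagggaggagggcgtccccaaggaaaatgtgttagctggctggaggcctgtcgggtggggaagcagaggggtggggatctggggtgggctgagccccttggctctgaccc
Pcolce2: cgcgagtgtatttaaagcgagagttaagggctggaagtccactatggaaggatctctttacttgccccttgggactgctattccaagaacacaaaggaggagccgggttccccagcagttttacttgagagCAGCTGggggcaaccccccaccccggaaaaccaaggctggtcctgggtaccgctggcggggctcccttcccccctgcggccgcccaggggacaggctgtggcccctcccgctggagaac

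A set of 1000 peaks was chosen by their excess in CKO nuclei of cluster 4 over other CKO barcodes, and then read in nuclei that had not entered the choice. In the CKO library these peaks held 1.33% (1.23% to 1.43%) of the peak counts of cluster 3, 1.21% (1.16% to 1.26%) of cluster 2, 0.714% of cluster 5 and 0.251% (0.203% to 0.305%) of cluster 1. The other CKO barcodes, which served in the choice, had 0.208%. Of the 1000 peaks 53.1% overlapped a peak of the Control library, and these 534 Control peaks held 0.750% (0.682% to 0.824%) of the counts of Control fibroblasts against 0.122% of other Control barcodes. By cluster the Control value was 1.33% (1.14% to 1.55%) in cluster 4, 0.936% in cluster 2 and 0.162% in cluster 1. Of single nuclei, 25 of 29 in CKO cluster 2, 14 of 16 in CKO cluster 3, 4 of 6 in Control cluster 2 and 4 of 5 in Control cluster 4 lay above the share of the other barcodes of their library. So did 3 of 4 CKO and 3 of 3 Control nuclei of cluster 1, by less, with medians of 0.280% in CKO and 0.303% in Control, and cluster 1 had the lowest share of the clusters in each library.

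Peaks that separated barcodes rich in surfactant RNA from Ptprc barcodes gave the epithelial side. In the CKO library they held 0.736% of the counts of fibroblasts against 1.12% of other barcodes and 1.75% of the surfactant barcodes they were chosen in. Cluster 1 had 1.15%, cluster 2 0.792%, cluster 3 0.716% and cluster 4 0.442%. In the Control library they held 1.55% in fibroblasts against 2.08% in other barcodes, with 2.26% in cluster 1, 1.18% in cluster 2 and 1.16% in cluster 4. Cluster 1 was the fibroblast cluster with the highest share of these peaks in both libraries. Of single nuclei, 9 of 70 in CKO and 3 of 14 in Control lay above the other barcodes of their library. Among them were 6 of 29 in CKO cluster 2 and 1 of 5 in Control cluster 4. A CKO nucleus of cluster 2 had 3.17% of its 725 counts here and 0 in the fibroblast peaks. A Control nucleus of cluster 4 had 3.03% of 1582 and 0. How many other barcodes lay above these lines was not counted for either peak set. The peaks of the opposite side, higher in Ptprc barcodes, held 0.256% (0.240% to 0.272%) in CKO fibroblasts against 0.611% in other CKO barcodes. In Control they held 2.79% (2.66% to 2.93%) in fibroblasts against 2.66% in other barcodes, so the fibroblasts of that library were not below their surroundings there. Its surfactant barcodes held 2.29% and its Ptprc barcodes 5.97%, and in the CKO library the same 2 groups held 0.0661% and 2.11%.

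**Figure D4:**
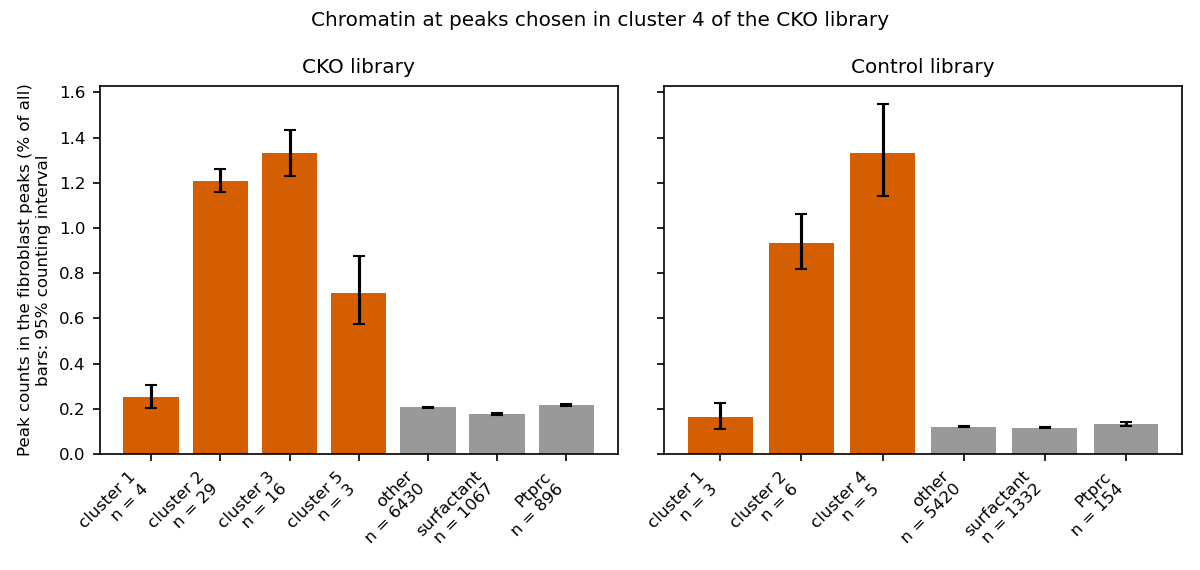
Share of peak counts in peaks chosen in cluster 4 of the CKO library (y axis, %, with 95% counting intervals), for the other fibroblast clusters (orange) and for other, surfactant and Ptprc barcodes (grey), in CKO (left) and Control (right); n is the number of barcodes, and the grey CKO groups entered the choice as part of the other barcodes. Clusters 2 and 3 in CKO and clusters 2 and 4 in Control stand between 0.936% and 1.33%, above the grey bars at 0.117% to 0.218%.

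The genotypes were compared over the fibroblast nuclei of the library labelled CKO and of the Control library. The Cre driver is active in AT2 cells, so fibroblasts are not the cells in which the floxed alleles are meant to be lost. Over 4928 tested genes 24.6% were at least 2-fold higher and 6.55% at least 2-fold lower in CKO fibroblasts, and the median log2 ratio was 0.27. In the other barcodes of the same libraries 31.3% of 17720 genes were higher and 2.92% lower, with a median of 0.67, so the surroundings were shifted in the same direction and further. A scaling by the median of ratios lowers every log2 value below by 0.24 for all fibroblasts, by 0.38 for those of clusters 2 to 4 and by 0.67 for other barcodes. Clusters 3 and 5 had no Control nuclei and cluster 1 held 4 CKO and 6 Control nuclei, so values of lists and of several genes are also given for clusters 2 to 4 (75 CKO and 15 Control nuclei), a split chosen after seeing the data. Cluster 3 is still in that split, so values are also given within cluster 2 (34 CKO and 8 Control nuclei) and within cluster 4 (21 CKO and 7 Control nuclei). A shared cluster does not make the nuclei of the 2 libraries alike. Per 10000 UMIs, the median AT2 sum in cluster 2 was 58.2 in CKO and 38.6 in Control nuclei. The median rule-gene sum in cluster 4 was 135 in CKO and 55.7 in Control nuclei.

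Fibrillar collagen RNA was higher in CKO fibroblasts. The list summed to 6967 CPM in CKO fibroblasts and 2520.0 CPM in Control fibroblasts, a log2 ratio of 1.47 (1.29 to 1.65), with 5 of 7 tested genes at least 2-fold higher, against 24.6% of all genes, and a median log2 ratio over the list of 1.72. The value was 1.43 over clusters 2 to 4, 1.08 in cluster 2 and 1.5 in cluster 4. In cluster 2 a single CKO nucleus held 471 of the 1221 CKO UMIs of the list, and without it the cluster 2 value was 0.50 (0.25 to 0.76) and that over all fibroblasts 1.26. A single Control nucleus of cluster 2 held 68 of the 274 Control UMIs, and without it the value over all fibroblasts was 1.70. The same list was also higher in the other barcodes, at 68.3 CPM in other CKO barcodes and 16.7 CPM in other Control barcodes, a log2 ratio of 2.03. Col1a1 was at 1396 CPM in CKO and 423 CPM in Control fibroblasts, a log2 ratio of 1.72 (1.29 to 2.19), and 145 of its 565 CKO UMIs came from 1 nucleus. Col3a1 had a log2 ratio of 1.59 (1.22 to 1.98) and Col1a2 one of 2.00 (1.58 to 2.44). Over clusters 2 to 4 Col1a1 was at 1.91, Col3a1 at 1.05 and Col1a2 at 1.56. These 3 and Col5a2, also on the list, are rule genes. Nuclei of either library with few of their UMIs are therefore missing from the comparison. Col1a1, Col1a2, Col3a1 and Col5a2 had 565, 728, 715 and 538 of the 2820 CKO UMIs of the list. In Control fibroblasts they had 46, 49, 64 and 87 of 274. The list values of this paragraph thus rest mostly on genes that chose the nuclei.

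Other matrix lists lay on the same side. The log2 ratio was 1.26 (1.04 to 1.49) for non-fibrillar collagens, 0.90 (0.63 to 1.18) for collagen processing, 0.74 (0.56 to 0.92) for elastic fibres and 1.42 (1.10 to 1.76) for proteoglycans. Over clusters 2 to 4 these were 1.08, 0.75, 0.77 and 0.95, and in other barcodes 0.26, -0.23, 0.36 and 0.72. Their median log2 ratios over all fibroblasts were 1.40, 1.56, 1.43 and 1.62. The elastic fibre list includes the rule genes Eln and Fbn1, so its value rests in part on genes that chose the nuclei. Eln had a log2 ratio of 2.37 (1.87 to 2.92) and Bgn one of 2.14 (1.34 to 3.08). Over clusters 2 to 4 Eln was at 1.94 (1.43 to 2.49) and Bgn at 1.6 (0.79 to 2.54). Matricellular genes were at 0.58, and at 0.49 over clusters 2 to 4, with 4 of 13 tested at least 2-fold higher and 1 lower, near the 24.6% and 6.55% of all genes. Proteases and inhibitors were at 0.68, though at -0.03 in cluster 4. Timp1 had 99 UMIs in CKO and 6 in Control fibroblasts, a log2 ratio of 2.15 (0.98 to 3.63) and one of 1.62 (0.44 to 3.10) over clusters 2 to 4, and cluster 3 held 50 of those CKO UMIs.

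The summed RNA of the alveolar fibroblast list was lower in CKO fibroblasts. It summed to 8220.0 CPM in CKO fibroblasts and 10319 CPM in Control fibroblasts, a log2 ratio of -0.33 (-0.43 to -0.23), and over clusters 2 to 4 to 8567 CPM in CKO and 14583 CPM in Control, a log2 ratio of -0.77. The value was -0.80 in cluster 2, -0.48 in cluster 4 and -0.61 over nuclei with a mitochondrial share under 20%. In cluster 2 a single one of the 8 Control nuclei held 241 of the 482 Control UMIs of the list. Without it the log2 ratio was -0.24 (-0.45 to -0.04) in cluster 2, -0.67 over clusters 2 to 4 and -0.16 over all fibroblasts. At least 2-fold lower were 3 of 14 tested genes over clusters 2 to 4, against 5.88% of all genes, and 2 of 10 in cluster 2, against 8.03%. Over all fibroblasts only 1 of 15 tested genes was at least 2-fold higher and 1 at least 2-fold lower, and the median over the list was -0.02, beside a median of 0.27 over all genes. Macf1, a linker of actin and microtubules, was at 2329.9 CPM in CKO and 3844 CPM in Control, a log2 ratio of -0.72 (-0.89 to -0.55). Most of the difference between the list sums of 8220.0 and 10319 CPM thus came from this 1 gene. The list was not summed without it. Fgf10, on the same list, was higher in CKO fibroblasts. Nebl, a nebulin-related actin-binding protein, had a log2 ratio of -0.35 (-0.60 to -0.10) and Limch1 one of -0.02 (-0.28 to 0.24). Mfap4, which is not on this list, had 81 UMIs in CKO and 34 in Control fibroblasts, a log2 ratio of -0.64 (-1.24 to -0.02). Over clusters 2 to 4 Macf1 was at -1.10, Nebl at -0.77, Limch1 at -0.47 and Mfap4 at -1.07, while in cluster 4 alone Limch1 was at 0.35 (-0.04 to 0.75). In other barcodes the list was at 0.06, which turns negative under the median of ratios.

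The fibrotic list was at 0.53 (0.37 to 0.68) over all fibroblasts, at 1.18 over clusters 2 to 4 and at 0.90 in cluster 4, where it summed to 7639 CPM in CKO and 4098 CPM in Control nuclei. The second value leaves out clusters 1 and 5, and the 6 Control nuclei of cluster 1 had 5801 CPM of the list. Of their 223 UMIs 142 came from 1 nucleus, and the other 5 nuclei stood at 2692 CPM. Without that nucleus the value over all fibroblasts was 1.03 (0.84 to 1.22). Over nuclei with a mitochondrial share under 20% the value was 0.0514, and with 1000 to 100000 peak counts it was 1.42. All 56 Control UMIs of Adam12, a metalloprotease, lay in cluster 1, as did 79 of 179 of Fn1 and 47 of 65 of Runx1, a transcription factor. In 1 nucleus of cluster 1 there were 47 UMIs of Adam12 and in 1 there were 40 of Runx1. Tnc had 346 UMIs in CKO and 55 in Control fibroblasts, a log2 ratio of 0.76 (0.34 to 1.19), which was 0.72 (0.26 to 1.22) over clusters 2 to 4. Within cluster 4 it was 1.03 (0.27 to 1.88), and within cluster 2 it had the opposite direction, at -1.44 (-2.21 to -0.65). Tgfb2 was lower in CKO fibroblasts, with a log2 ratio of -1.77 (-2.39 to -1.16), and all 45 of its Control UMIs lay in cluster 1, so over clusters 2 to 4 Control had 0. Cd44, the hyaluronan receptor, had a log2 ratio of -0.78 (-1.08 to -0.48) over all fibroblasts, with 109 of 137 Control UMIs in cluster 1. Over clusters 2 to 4 its direction was the opposite, at 0.94 (0.38 to 1.56), and in cluster 4 it had 74 UMIs in CKO and 7 in Control nuclei, a log2 ratio of 1.54 (0.42 to 2.90).

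Inflammatory and signalling lists gave smaller or less stable differences. The inflammatory list had 753 UMIs in CKO and 84 in Control fibroblasts, a log2 ratio of 1.27 (0.94 to 1.61), with 7 of 11 tested at least 2-fold higher, against 24.6% of all genes, and 0.65 over clusters 2 to 4. C3, the central complement protein, had 148 UMIs in CKO, 81 of them in cluster 5, and 13 in Control. The prostaglandin list summed to 1132 CPM in CKO fibroblasts and 579 CPM in Control fibroblasts, a log2 ratio of 0.97 (0.58 to 1.37). Ptgis had a log2 ratio of 2.21 (1.29 to 3.29), with 172 UMIs in CKO and 10 in Control fibroblasts, and 1.22 (0.29 to 2.31) over clusters 2 to 4. The Wnt list was at 0.47 and mesenchymal transcription factors at 0.28. Over clusters 2 to 4 they were at 0.45 and 0.34, the last turning negative under the median of ratios. TGF-beta and BMP genes were at 0.07 (-0.06 to 0.20) over all fibroblasts and 0.33 (0.16 to 0.50) over clusters 2 to 4, and the first value includes the 45 Control UMIs of Tgfb2 in cluster 1. Niche signals were at 0.21 (0.06 to 0.36) over all fibroblasts, which includes the 74 Control UMIs of Nrg1 in cluster 1, and at 0.02 (-0.14 to 0.19) over clusters 2 to 4. Both lists turn negative under the median of ratios, over all fibroblasts and over clusters 2 to 4. AP-1 and immediate early genes were at -0.09 (-0.22 to 0.04) in all fibroblasts, -0.53 (-0.67 to -0.39) over clusters 2 to 4 and -0.71 in other barcodes. The p53 list was at 0.34 (0.10 to 0.58) in all fibroblasts, 0.61 (0.30 to 0.92) over clusters 2 to 4 and 0.43 in other barcodes.

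Markers of other cell types also differed between the fibroblasts of the 2 libraries. Macrophage genes were at a log2 ratio of -1.27, with 205 UMIs in CKO and 133 in Control fibroblasts, AT2 genes at -0.30, AT1 genes at 0.41 and mesothelial genes at 3.37, the last at 0.17 over clusters 2 to 4. The 12 cycling genes had 194 UMIs in CKO fibroblasts and 0 in Control fibroblasts, with Mki67 in 9 of 84 CKO nuclei (10.7%) against 3.68% of other CKO barcodes. Of its 39 UMIs 24 came from 1 nucleus. Their part in the list differences was not tested.

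**Figure D5:**
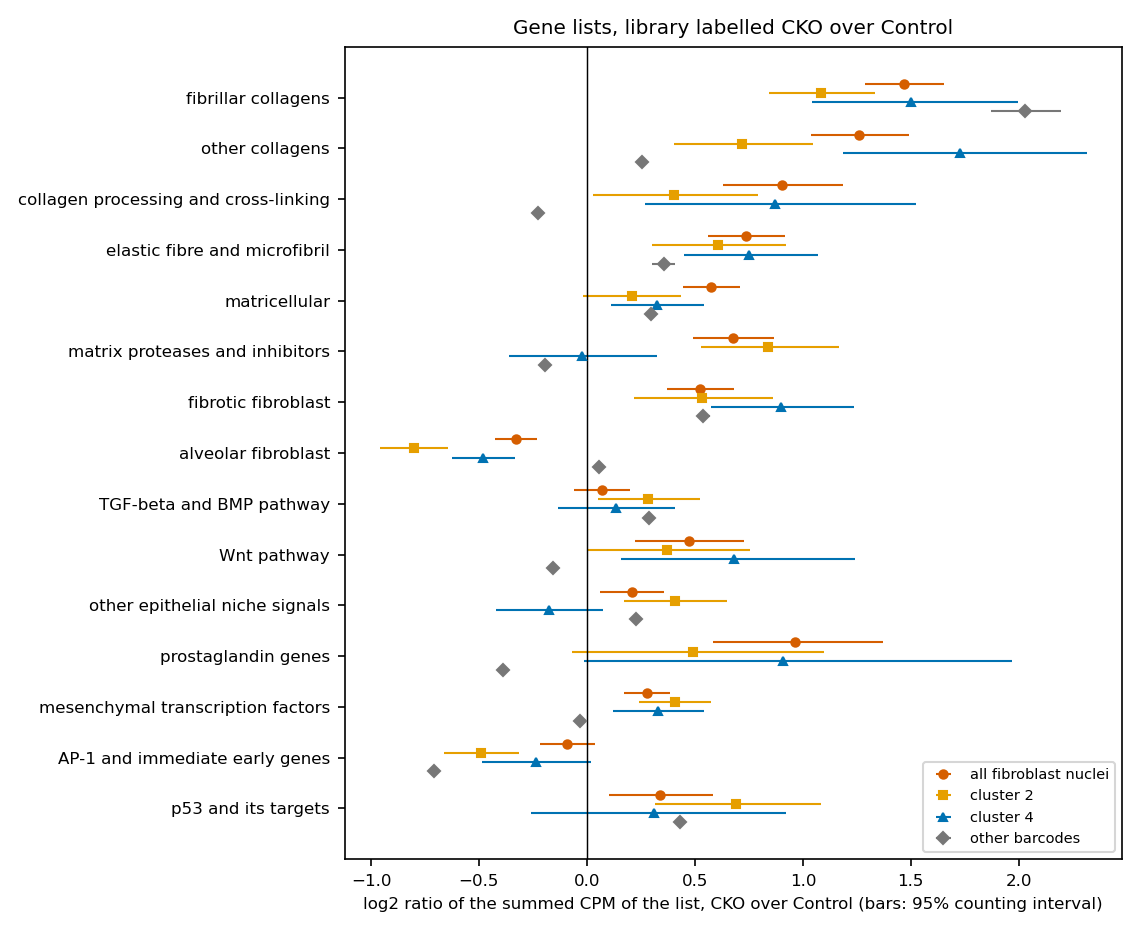
Log2 ratio of the summed CPM of 15 gene lists, CKO over Control (x axis, with 95% counting intervals), for all fibroblast nuclei (circles), cluster 2 (squares), cluster 4 (triangles) and the other barcodes (diamonds). The fibrillar collagen list stands at 1.47 over all fibroblasts and at 2.03 in the other barcodes, and the alveolar fibroblast list at -0.33 and 0.06.

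Of the genes with the largest CKO excess by the bound nearest 0, Itga5, Chst11, Spp1, Msln and Igfbp5 had most of their UMIs in clusters that the Control library lacked. Itga5 had 188 UMIs in 37 of 84 CKO fibroblasts, 150 of them in cluster 3, and 1 UMI in Control fibroblasts, a log2 ratio of 5.66 (3.16 to 10.97), against 0.13 in other barcodes. Chst11, a chondroitin sulfotransferase, had 112 UMIs against 0 and was at least 10.0-fold higher against a floor of 3 counts in Control, with 89 of them in cluster 3. Spp1 had 104 against 0, at least 9.31-fold, with 74 in cluster 3, and its log2 ratio in other barcodes was 3.89. Rbfox1, an RNA splicing factor of neurons and muscle, had 94 against 0, at least 8.42-fold, with 46 in cluster 5. Msln had 105 against 1, with 90 in cluster 5, and Igfbp5, an IGF-binding protein, 111 against 1, with 83 in cluster 5 and 54 in 1 nucleus. Ebf1 had 112 against 1, with 89 in cluster 2, which both libraries had, and 59 in 1 nucleus. Rps2, a ribosomal protein gene whose near-identical genomic copies make its counts uncertain, had 135 against 2. In other barcodes the log2 ratio was 3.15 for Chst11, 3.07 for Igfbp5, 2.75 for Msln, 1.45 for Ebf1, 1.10 for Rps2 and 0.91 for Rbfox1.

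The genes with the largest Control excess, apart from Lsmem1, rested mostly on single nuclei or on cluster 1. Ntm, a neural adhesion molecule, had 10 UMIs in CKO and 43 in Control fibroblasts, with 41 of the Control UMIs in cluster 1 and 24 in 1 nucleus. Fbxo32, a ubiquitin ligase subunit, had 5 against 25, all Control UMIs in cluster 1 and 21 in 1 nucleus. Lurap1l had 16 against 52 and Shank2 11 against 26, with 39 and 19 of the Control UMIs in cluster 1. Kcnip4 had 21 against 41, 31 of them in 1 nucleus, Akap12 29 against 50, 43 of them in 1 nucleus of cluster 4, and Ptprt 14 against 28, 16 of them in 1 nucleus. Lsmem1 had 17 against 44, and its log2 ratio was -3.27 (-4.17 to -2.43) in fibroblasts and -3.66 in other barcodes, so its difference was as large outside the fibroblasts. In the Control library 40 of its UMIs lay in cluster 2, 20 of them in 1 nucleus.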

How the data were processed

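Nuclei of sorted lung cells, titled GFP+ AT2 cells, were profiled by 10x multiome in 1 CKO and 1 Control sample. The deposited matrices hold whole-number counts per barcode, UMIs per gene and transposition counts per peak, per the file headers and labels. Cell Ranger ARC 2.0.1, Seurat 4.1.0 and Signac 1.6.0 are named in the submitters' processing notes. GRCm39 and GRCm38 are both named there with no role, and gene positions lay within 10000 bases of RefSeq GRCm38.p6 for 96.7% of 25200 matched symbols, so GRCm38 coordinates are given. Of the per-sample value columns 0 were left unused, and 30934 of 31053 gene IDs matched the name table.

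Barcodes were filtered and fibroblasts chosen as described at the opening of the results. The nuclear-encoded counts of a group were summed over its barcodes and divided by their total to give CPM (404742 UMIs in CKO and 108730 in Control fibroblasts). Ratios carry exact conditional binomial 95% intervals and shares carry Clopper-Pearson intervals, and these cover counting error only. Ratios of genes required 20 UMIs over both groups, and gene windows 200 peak counts. A value over a group at 0 was bounded with a floor of 3 counts. With 1 library per group no test across genes was run. Clusters came from Leiden (igraph 0.11.9, scanpy 1.11.5, 15 components, 10 neighbours). Scrublet ran at an expected rate of 0.08. Statistics used scipy 1.17.1 with numpy 2.4.6 under Python 3.11.15, tables pandas 2.3.3 and plots matplotlib 3.10.9, and the scripts were tested on simulated data.

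The members and gene lists were chosen with earlier results of these data known. Named genes were the 9 rule genes, list genes with at least 10 UMIs, the 20 genes outside the rule with the highest lower bound in the CKO library (at least 30 UMIs), the 8 highest and 8 lowest genes between genotypes, and Ptgir, Ptgis, Jun, Trp53, Cdkn1a and Sftpc; others named had their values seen first. Splits by cluster, the peak set of cluster 4 and single nuclei left out were chosen after seeing the data.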

Additional observations from a re-analysis of the deposited data

Results flagged for a closer look

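In 7 gene lists the CKO over Control difference had one direction in the fibroblast nuclei, over all of them and over clusters 2 to 4, and the opposite direction in the other barcodes of the same libraries. The difference between the 2 sets of barcodes was not tested in any of them, since each genotype had 1 library. The alveolar fibroblast list had a log2 ratio of -0.33 in fibroblasts, -0.77 over clusters 2 to 4 and 0.06 in other barcodes, and the last value turns negative under the median of ratios, so the opposition does not hold there.

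The other lists were higher in CKO fibroblasts and lower in other CKO barcodes. The inflammatory fibroblast list stood at 1.27 in fibroblasts, 0.65 over clusters 2 to 4 and -0.22 in other barcodes. Collagen processing and cross-linking stood at 0.90, 0.75 and -0.23. Matrix proteases and inhibitors stood at 0.68, 0.69 and -0.20. Prostaglandin genes stood at 0.97, 0.65 and -0.39. The Wnt pathway stood at 0.47, 0.45 and -0.16, and mesenchymal transcription factors at 0.28, 0.34 and -0.03, where the value over clusters 2 to 4 turns negative under the median of ratios. Epithelial and immune transcripts that differ between the surroundings of the 2 libraries could enter the fibroblast sums, and their part was not tested.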

How the results depend on the processing

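Leaving out Scrublet doublets, or fibroblasts with a surfactant RNA share of 1% or more, removed no barcode. The values of these settings could not change and are counted as staying. With them included, 201 of 266 recomputed values for 29 results stayed within the spread of the reported value. Outside it lay 63 with the same sign and 2 with the opposite sign. Both of these were Control accessibilities: alveolar fibroblast genes had a log2 ratio of -0.10 instead of 0.52 when peaks within 1000 bases of the gene start were counted, and the fibroblast genes outside the rule had -0.55 instead of 0.15, whose interval includes 0, with a mitochondrial share under 20%. The AP-1 list, also with an interval that includes 0, changed from -0.09 to 0.01 without the Control nucleus richest in it. The window at the gene start gave the fibroblast genes outside the rule 1.26 in CKO and 0.86 in Control.

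For those genes in RNA, fibroblasts over other barcodes, the log2 ratio was 3.06 in CKO with 1000 to 100000 peak counts, 3.3 in CKO and 3.91 in Control over clusters 2 to 4, 3.33 and 3.63 with a marker sum of at least 10, 3.32 and 3.87 with a mitochondrial share under 20%, 3.82 in Control as a mean of per-nucleus shares, and 3.08 in Control under the median of ratios. The number of them at least 2-fold higher in Control was 10 with a mitochondrial share under 20% and 26 without a minimum of UMIs.

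For CKO over Control, fibrillar collagens gave 1.22 with 1000 to 100000 peak counts, 1.08 in cluster 2, 1.14 as a mean of per-nucleus shares and 1.23 both under the median of ratios and with a mitochondrial share under 20%, and their median was 1.89 without a minimum. Alveolar fibroblast genes gave -0.44 with the peak count limits, -0.80 in cluster 2, -0.48 in cluster 4, -0.77 over clusters 2 to 4, -0.54 with a marker sum of at least 10, -0.52 as a mean of per-nucleus shares, -0.57 under the median of ratios and -0.61 with a mitochondrial share under 20%. Fibrotic genes gave 1.42 with the peak count limits, 0.90 in cluster 4, 1.18 over clusters 2 to 4, 1.13 with a marker sum of at least 10, 0.28 under the median of ratios and 0.0514 with a mitochondrial share under 20%, where 59 CKO and 15 Control nuclei were left. Thinning gave a Control share of 0.139%, and resolution 0.3 gave 3 clusters. Without the nucleus richest in a list, fibrillar collagens gave 1.26 (CKO nucleus left out) and 1.70 (Control), fibrotic genes 1.03 (Control) and alveolar fibroblast genes -0.16 (Control). The cause of these shifts was not tested. Settings with 1 cluster, clusters 2 to 4, cluster 1 left out or 1 nucleus left out were chosen after seeing the data.

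No paired analysis was possible because each genotype had 1 library and the labels carry no replicate numbers. Depth limits the Control side most: 21 nuclei, 14 of them with 500 peak counts, so a gene of 1 UMI there rests on a single molecule.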
